A study of Mus musculus with 10 samples.

Results

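The genes described here encode the main building blocks of the basement membrane, the thin protein sheet that wraps every muscle fibre, blood vessel and nerve bundle of skeletal muscle. The group holds 10 genes: the type IV collagen chains Col4a1 and Col4a2, the laminin chains Lama2, Lama4, Lamb1, Lamb2 and Lamc1, the nidogens Nid1 and Nid2, and Hspg2, which encodes perlecan. They were taken by gene symbol, as every probe set (a set of array probes for one transcript) whose annotation names one of these genes and no other. They are 10 of the 18193 genes named on the array and hold 19 of its 45101 probe sets. Of the 19, 14, at least 1 for each gene, had a mean log2 intensity of 4 or more and were tested. The other 5 lay below that filter and are extra probe sets of Lama4 (1), Lamb1 (2) and Nid1 (2).

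The muscle sampled was the gastrocnemius, in the calf, from male mice 7.5 months old on a C57BL/6 background, with 5 mice in each of 2 groups. Both groups carried the CAGG-CreER transgene, a tamoxifen-dependent Cre recombinase behind a promoter active in most cell types, and both were given 8 tamoxifen injections beginning at 4 months of age. The Floxed_Mstn mice had floxed myostatin genes, which Cre deletes, and are called knockouts below. The WT_Mstn mice had normal myostatin genes and are called controls, so Cre and tamoxifen are shared by both groups and the floxed allele is what differs. Myostatin is a secreted protein that restrains muscle growth, and the comparison asks what its loss in grown animals does to muscle transcripts. The annotation used here names no probe set for Mstn, so its own transcript gives no check of the labels.

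Type IV collagen and laminin each form a network in the basement membrane. A collagen IV molecule is a triple helix, most often of 2 chains from Col4a1 and 1 from Col4a2. A laminin is a trimer of an alpha, a beta and a gamma chain: Lama2 encodes the alpha chain typical of the muscle fibre, Lama4 an alpha chain found around vessels and nerve, Lamb1 and Lamb2 beta chains, the latter concentrated at the neuromuscular junction, and Lamc1 the gamma chain that most laminins share. Nidogens link the laminin network to collagen IV, and perlecan is a large heparan sulphate proteoglycan that binds both. Loss of Lama2 function causes a congenital muscular dystrophy, and mutations of COL4A1 or COL4A2 affect small vessels and muscle.

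Col4a1 and Col4a2 are neighbours that start within a few bases of each other and are read in opposite directions. Their promoter windows are shown because the transcripts of this pair varied together most closely of all 45 pairs among the 10 genes (given below). Col4a2 with Hspg2, on chromosome 4, came close behind, and the part of the neighbouring starts in this was not tested. Each window runs 5′ to 3′ on its gene's own strand from 250 bases before to 50 bases after the annotated start, and comes from RefSeq on GRCm38.p6. The Col4a1 window is chr8:11312777-11313076 on the minus strand, and the Col4a2 window is chr8:11312555-11312854 on the plus strand. Capitals mark the 78 bases that both windows cover, which read as reverse complements of each other.
Col4a1: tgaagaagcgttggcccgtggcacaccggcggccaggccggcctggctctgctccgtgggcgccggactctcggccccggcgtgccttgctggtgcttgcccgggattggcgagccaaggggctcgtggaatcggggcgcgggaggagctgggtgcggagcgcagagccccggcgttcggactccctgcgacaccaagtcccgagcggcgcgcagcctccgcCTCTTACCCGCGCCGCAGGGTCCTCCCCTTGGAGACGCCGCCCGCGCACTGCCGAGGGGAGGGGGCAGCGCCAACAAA
Col4a2: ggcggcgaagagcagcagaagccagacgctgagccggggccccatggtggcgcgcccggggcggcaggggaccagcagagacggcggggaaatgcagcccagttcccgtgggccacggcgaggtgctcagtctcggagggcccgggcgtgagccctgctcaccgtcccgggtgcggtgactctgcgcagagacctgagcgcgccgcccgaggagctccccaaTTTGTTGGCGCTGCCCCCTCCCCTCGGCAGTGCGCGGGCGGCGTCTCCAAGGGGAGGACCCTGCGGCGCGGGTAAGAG
The 2 annotated starts lie 21 bases apart, and the shared stretch is 73.1% G or C, where the median of all windows is 52.7%. Windows were found for 7 of the 10 genes, and not for Lama4, Lamc1 and Nid2. On either strand, the letters CCAAT occur in 4 of the 7 windows (Col4a1, Col4a2, Lamb1 and Nid1), against 37.4% of all 32851 windows of this length. GGGCGG, the core of a GC box, occurs in 6 of the 7 (all but Lamb2), against 35.7% of all windows, and 1 of its matches lies in the stretch that Col4a1 and Col4a2 share. These letters are all G or C, and the windows of Col4a1, Col4a2, Lamb1, Nid1 and Hspg2 were 63.7% to 74.0% G or C. Those of Lama2 (50.3%) and Lamb2 (44.0%) lay below the median of all windows. The shares were not adjusted for G or C content. TATAAA occurs in none of the 7, against 13.6% of all windows. Matches of different motifs may share bases, and a match describes the letters only.

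No probe set of these genes passed the threshold of 0.05 on the adjusted p (limma, adjusted over 21154 probe sets), where 0.0993% of all probe sets did. The knockout mean was nevertheless the lower one for all 10 genes and for all 14 probe sets tested, where 50.8% of all probe sets had the lower mean in knockouts. The 5 probe sets below the filter had the higher mean in knockouts, so 14 of all 19 were lower. One dim Lamc1 probe set lay close to no difference and was higher in knockouts under 10 of the 19 alternatives run, quantile normalization and median centring among them, which leaves 13 of 14 lower there. With each gene represented by its brightest probe set, the median difference, knockout minus control, was -0.27 on the log2 scale, and the median over all 10704 genes tested was -0.0049. The single differences ran from -0.53 for Nid2 to -0.08 for Lamb1. The 95% interval of the difference lay wholly below 0 for 5 of the 10 genes (Col4a1, Nid1, Col4a2, Lama2 and Lamb2), which 5.02% of all genes tested reached, and for 7 of the 14 probe sets, which 4.09% of all probe sets reached. Those intervals are not adjusted for the number of genes. The 10 genes were chosen with earlier results of these data known, so setting their counts beside these shares is no test. The count of 7 fell to 4 without control 5 and to 4 without knockout 1. The share of all probe sets with such an interval was then 2.96% and 3.60%. Control and knockout arrays did not overlap for 2 probe sets, those of Col4a1 and Nid1, a pattern that 0.893% of all probe sets showed in the lower direction. A lower signal from whole muscle can come from fewer cells that make a transcript or from less of it per cell, and these cannot be told apart here.

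**Figure D1:**
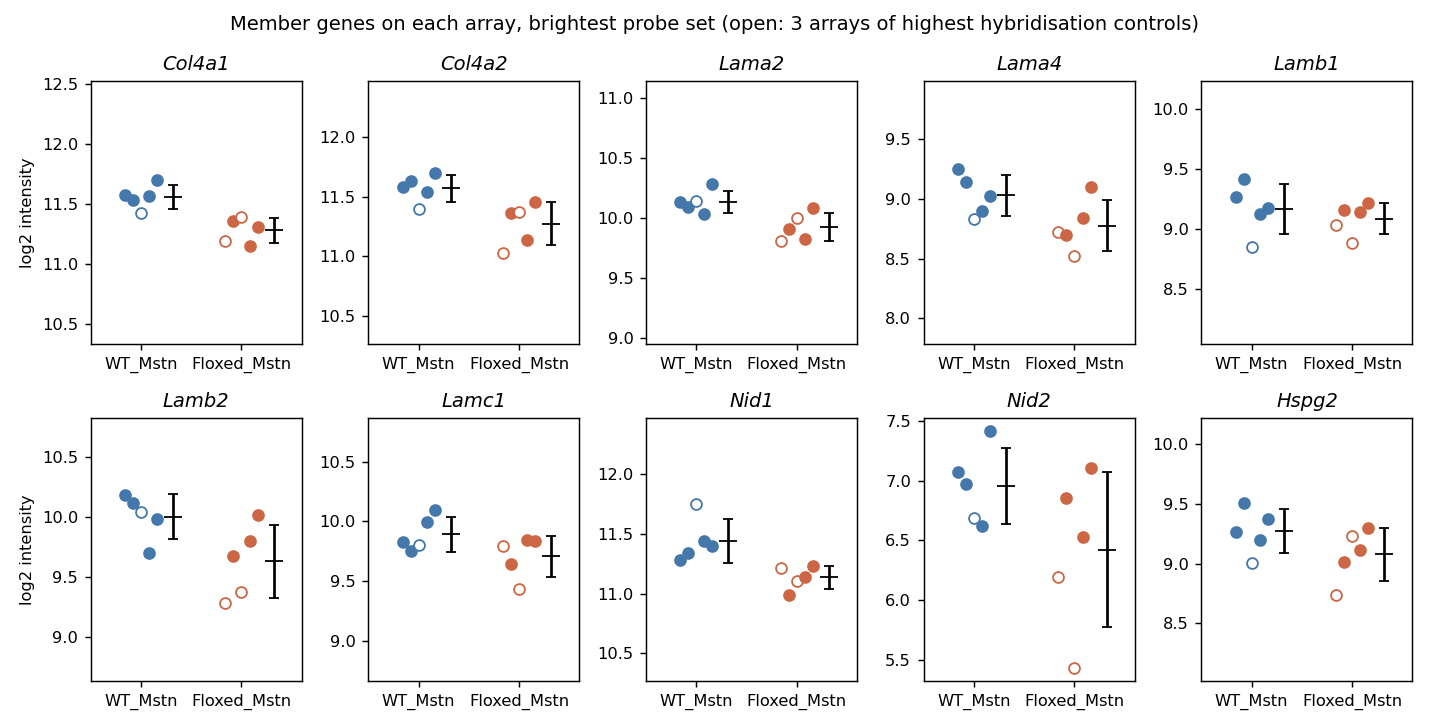
Log2 intensity of the brightest probe set of each of the 10 genes (vertical axis, each panel spanning 2.2 log2 units) in 5 WT_Mstn and 5 Floxed_Mstn mice; each point is 1 mouse, black marks give the mean and SD, and open points are the 3 arrays with the highest hybridisation controls. The groups separate fully for Col4a1 and Nid1, and the widest spread is that of Nid2 in knockouts.

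Col4a1 encodes the chain that supplies most of the collagen IV helix. Its brightest probe set read 11.58, 11.53, 11.43, 11.57 and 11.70 in controls 1 to 5 (log2 intensity) and 11.19, 11.36, 11.39, 11.15 and 11.31 in knockouts 1 to 5. Every knockout lay below every control, with a gap of 0.040 between the lowest control and the highest knockout. The difference was -0.28 ± 0.08 (SE, n = 5 per group), or 1.21-fold lower in knockouts with a 95% interval from 1.08 to 1.37-fold, and the adjusted p was 0.377. A second Col4a1 probe set gave -0.41 ± 0.10 (1.33-fold lower, adjusted p = 0.301), with controls at 8.85, 8.99, 8.71, 8.80 and 9.13 and knockouts at 8.41, 8.50, 8.40, 8.38 and 8.73. There, only knockout 5 reached into the range of the controls.

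Col4a2, the partner chain, gave 11.58, 11.63, 11.39, 11.54 and 11.70 in controls 1 to 5 and 11.03, 11.37, 11.37, 11.14 and 11.46 in knockouts 1 to 5. Of the knockouts, 4 of 5 lay below all controls, and knockout 5 lay above control 3 alone. The difference was -0.29 ± 0.10 (SE), 1.23-fold lower, with an interval from 1.05 to 1.43-fold and an adjusted p of 0.496. This difference lies between those of the 2 Col4a1 probe sets, and the genes were not tested against each other.

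Among the laminin alpha chains, Lama2 read 10.13, 10.09, 10.14, 10.04 and 10.28 in controls 1 to 5 and 9.81, 9.91, 10.003, 9.82 and 10.08 in knockouts 1 to 5. Of the knockouts, 4 of 5 lay below every control. The difference was -0.21 ± 0.08 (SE), 1.16-fold lower, with an interval from 1.02 to 1.31-fold and an adjusted p of 0.557. Lama4, the alpha chain of vessel and nerve laminins, ran from 8.83 to 9.25 in controls and from 8.52 to 9.10 in knockouts, and the groups overlapped. Its difference was -0.25 ± 0.12 (SE), with a 95% interval of -0.52 to 0.02 and an adjusted p of 0.697.

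Of the beta chains, Lamb2 had the larger difference. Its values were 10.18, 10.12, 10.04, 9.70 and 9.98 in controls 1 to 5 and 9.28, 9.68, 9.37, 9.80 and 10.02 in knockouts 1 to 5. Knockouts 1, 2 and 3 lay below all controls, while knockouts 4 and 5 lay among them. The difference was -0.38 ± 0.15 (SE), 1.30-fold lower, with an interval from 1.02 to 1.64-fold and an adjusted p of 0.602. By brightest probe sets, Lamb1 showed the smallest difference of the 10 genes, -0.08 ± 0.11 (SE), with controls from 8.85 to 9.42 and knockouts from 8.88 to 9.21. Its interval of -0.33 to 0.17 covers anything from 1.26-fold lower to 1.12-fold higher, and its adjusted p was 0.961. Single arrays moved it, to -0.018 without control 2, -0.031 without knockout 3 and -0.16 without control 3. A dimmer Lamb1 probe set gave -0.12 ± 0.13 (SE), and -0.013 without the 3 arrays of highest hybridisation controls described below. The name of the brighter one ends in _s_at, a mark for probes that can match more than 1 transcript.

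Lamc1, the shared gamma chain and the only one of the 10 genes on the chromosome that carries Mstn, ran from 9.75 to 10.10 in controls and from 9.44 to 9.84 in knockouts. Its difference was -0.18 ± 0.10 (SE), with an interval of -0.41 to 0.05 and an adjusted p of 0.763, and it was -0.11 without knockout 3. The dimmer Lamc1 probe set gave -0.0036 ± 0.23 (SE), and its direction is not settled, as described above. The difference between Lamb1 or Lamc1 and the other laminin chains was not tested.

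The 2 nidogens differed in how their arrays spread. Nid1 read 11.28, 11.34, 11.75, 11.44 and 11.40 in controls 1 to 5 and 11.21, 10.99, 11.11, 11.14 and 11.23 in knockouts 1 to 5. Here the groups did not overlap, and the lowest control lay 0.050 above the highest knockout. The difference was -0.31 ± 0.10 (SE), 1.24-fold lower, with an interval from 1.06 to 1.44-fold and an adjusted p of 0.469. Without control 3, the highest control, it was -0.23.

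Nid2 read 7.07, 6.97, 6.69, 6.62 and 7.41 in controls 1 to 5 and 6.20, 6.85, 5.44, 6.53 and 7.10 in knockouts 1 to 5. Knockout 3 lay lowest, and knockout 5 lay above 4 of the 5 controls. Its difference of -0.53 ± 0.30 (SE) was the largest of the 10 genes by brightest probe sets and also the least precise, with an interval of -1.19 to 0.13 and an adjusted p of 0.754. Without knockout 3 it was -0.28.

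Hspg2, which encodes perlecan, was read by 2 probe sets of unlike size of difference. The brighter gave 9.27, 9.51, 9.01, 9.20 and 9.37 in controls 1 to 5 and 8.73, 9.01, 9.23, 9.12 and 9.30 in knockouts 1 to 5, and the groups overlapped except for knockout 1. Its difference was -0.19 ± 0.13 (SE), with an interval of -0.48 to 0.09 and an adjusted p of 0.815, and it was -0.11 without knockout 1. The dimmer gave -0.54 ± 0.23 (SE), with an interval of -1.04 to -0.04 and an adjusted p of 0.606. Its controls ran from 6.54 to 7.30 and its knockouts from 5.96 to 6.99. The brighter probe set carries the _s_at mark, so which of the 2 follows perlecan more closely is not settled.

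**Figure D2:**
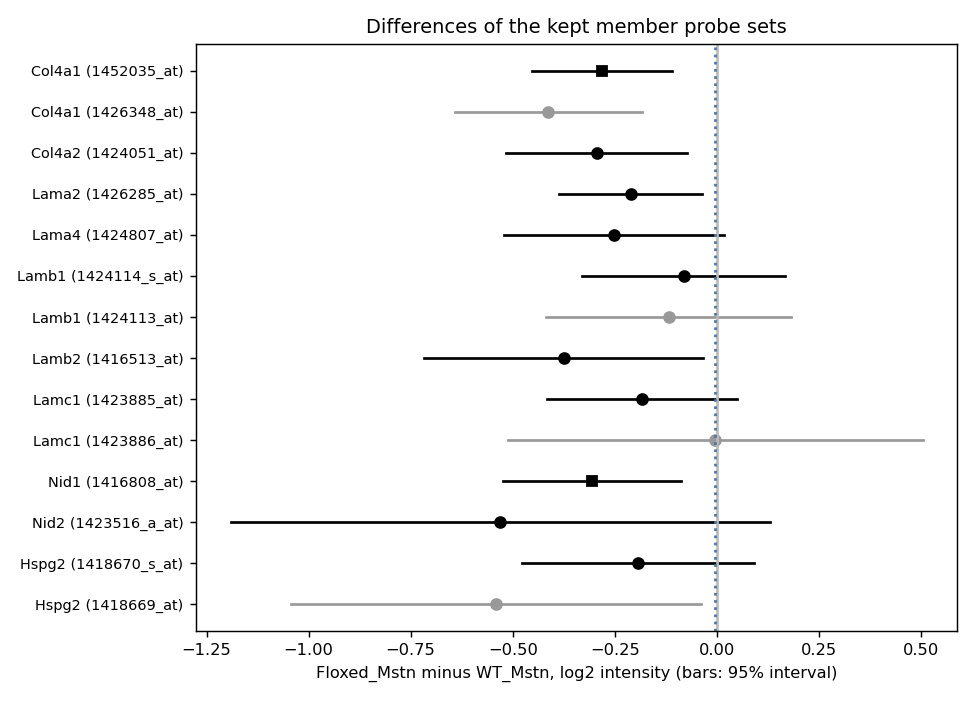
Difference in log2 intensity, Floxed_Mstn minus WT_Mstn (horizontal axis), of the 14 tested probe sets with 95% intervals from limma; black marks the brightest probe set of a gene, grey its other probe sets, squares those whose groups do not overlap, and the dotted line the median of all genes. All 14 points lie at or left of 0, and 7 intervals lie wholly below 0.

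The arrays differ in more than genotype. Over all tested probe sets, 53.6% of the variance lay on the first principal axis, and correlations between arrays ran from 0.944 to 0.991. The 9 hybridisation controls, bacterial and phage transcripts added to every sample, had a mean log2 intensity of 13.23 ± 0.12 (SD, n = 5) for the control group against 13.28 ± 0.20 for the knockouts (exact permutation p = 0.698, two-sided), and were highest on knockout 3 (13.51), knockout 1 (13.44) and control 3 (13.41). The 3′ minus 5′ difference of Gapdh, a sign of RNA integrity, averaged 0.49 ± 0.03 log2 units for the control group against 0.45 ± 0.03 for the knockouts (SD, exact permutation p = 0.0317, two-sided). For beta-actin the means were 1.47 ± 0.06 against 1.40 ± 0.05 (SD, exact permutation p = 0.0873, two-sided), and the part of this in the results was not tested. The labels do not say whether any of the mice were littermates.

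Several of the 10 genes ran against the hybridisation controls from array to array, being lowest where the controls were highest. This was not particular to these genes. The median log2 of all tested probe sets was also lowest in control 3 (7.63), knockout 3 (7.64) and knockout 1 (7.72). That median was highest in knockout 5 (7.91). Knockouts 1 and 3 held the lowest knockout value for 8 of the 10 genes, and control 3 held the lowest control value for 5. Knockout 5, where the controls were lowest (13.01), held the highest knockout value for 8 of the 10. Col4a1 had its lowest control value in control 3 but its highest knockout value in knockout 3, and Nid1 had its highest control value in control 3. Without the 3 arrays of highest hybridisation controls, the differences shrank from -0.53 to -0.19 for Nid2 and from -0.38 to -0.16 for Lamb2, whereas they were -0.32 for Col4a1, -0.29 for Col4a2, -0.24 for Nid1 and -0.20 for Lama2. The median of the 10 genes was then -0.20, and 5 of the 14 intervals lay below 0, as did those of 4.31% of all probe sets. With the hybridisation controls as a covariate in the fit, the median was -0.24 and 9 of the 14 intervals lay below 0. In this fit 5.38% of all probe sets had such an interval. Col4a1 then gave -0.27 (adjusted p = 0.205), Nid1 -0.32 (adjusted p = 0.219) and Hspg2, by its dimmer probe set, -0.45 (adjusted p = 0.158), and Lama4 gave -0.21 with an SE of 0.08 in place of 0.12. No probe set of the 10 genes passed in either fit.

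**Figure D3:**
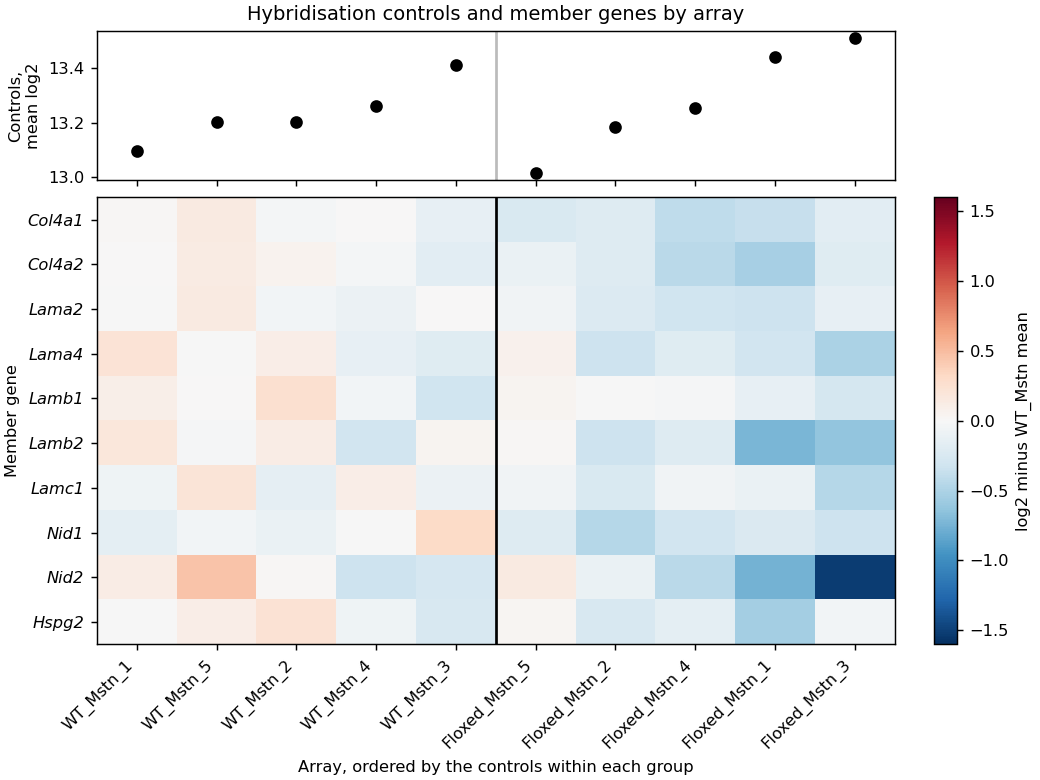
Top, mean log2 intensity of the 9 hybridisation controls on each array; bottom, log2 intensity of each of the 10 genes minus its WT_Mstn mean (colour), with arrays ordered by the controls within each group. The blue cells deepen toward the right of the knockout columns for Nid2 and Lamb2, where knockout 3 lies 1.5 units below the control mean of Nid2, while Nid1 is reddest in control 3.

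Within groups, the 10 genes did not vary as one block. Deviations from the group means over the 10 arrays gave Pearson's r from -0.66 to 0.84 over the 45 pairs, with a median of 0.32, and 32 pairs were above 0. All of these arrays share one normalization and one first axis, so the values are a description without a test. The head-to-head pair Col4a1 and Col4a2 had the highest r, 0.84, followed by Col4a2 with Hspg2 (0.83) and Lama4 with Lamb1 (0.78). Lama2 lay closest to Col4a2 (0.76) and Col4a1 (0.67). A second set formed around Lama4, which also varied with Lamb2 (0.76) and Nid2 (0.73). Nid1 ran against most of the others, with r of -0.66 to Lamb1, -0.55 to Col4a1 and -0.48 to Col4a2, and -0.18 to its own relative Nid2. Control 3 held the highest control value of Nid1 and the lowest of Lamb1, Col4a1 and Col4a2. These r were not computed without that array. The deviations of Lama4, Nid2, Lamb2 and Lamb1 had r of -0.87, -0.87, -0.78 and -0.77 with those of the hybridisation controls. These were the most negative values of the 10 genes, and Col4a1 and Nid1 had -0.24 and 0.40. What part the hybridisation controls have in the set around Lama4 was not tested.

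**Figure D4:**
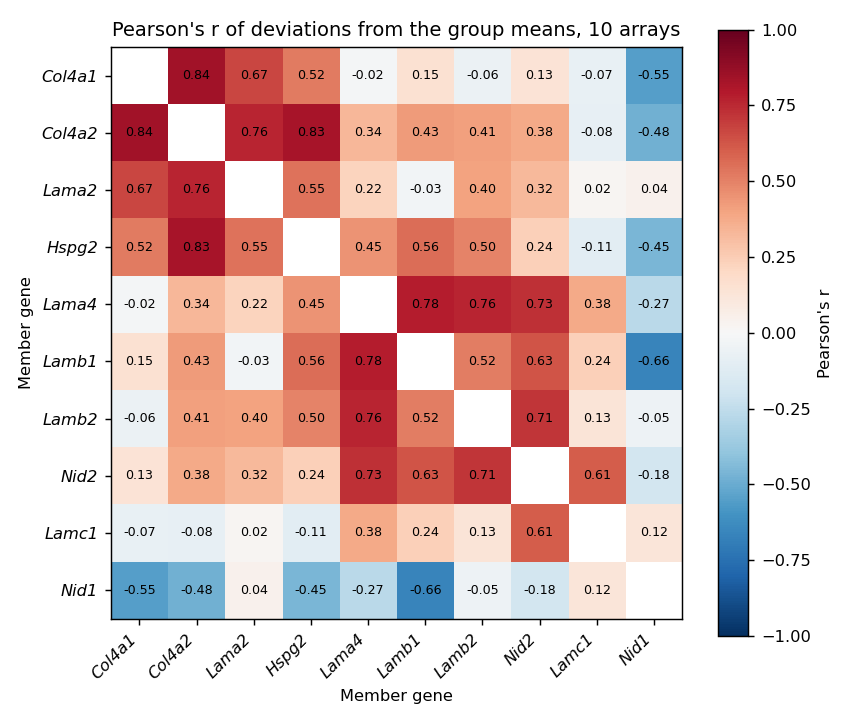
Pearson's r between each pair of the 10 genes (rows and columns) over the deviations of 10 arrays from their group means, with red for positive and blue for negative values. Col4a1, Col4a2, Lama2 and Hspg2 lie between 0.52 and 0.84 with each other, Lama4, Lamb1, Lamb2 and Nid2 between 0.52 and 0.78, and Nid1 has no value above 0.12.

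The 6 genes outside the group that followed the mean of the 10 most closely were Cbll1 (r = 0.98), Anpep (0.98), Spata7 (0.96), Ccdc80 (0.96), Cadm3 (0.96) and Kctd5 (0.96), by the same deviations over 10 arrays. None of the 6 passed the threshold between genotypes, and their differences ran from -0.71 for Anpep to 0.19 for Spata7. The mean of the 10 genes itself had an r of -0.92 with the hybridisation controls, and 783 genes (7.32% of those tested) had an r above 0.8 with it. What part those controls have in this likeness was not tested.

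Genes that work beside these 10 were read from lists of the same pathway, by the brightest probe set of each gene, and none of the 45 tested in 5 such lists passed the threshold, where 0.131% of all genes did. Of the rarer type IV collagen and laminin chains, 4 of 10 could be tested (Col4a3, Col4a4, Col4a5 and Lama5), all with a lower mean in knockouts and a median of -0.49. Col4a4 gave -0.63 ± 0.14 (SE, adjusted p = 0.243) and Col4a5 gave -0.69 ± 0.30 (SE, adjusted p = 0.642), the latter -0.30 without the 3 arrays of highest hybridisation controls. Of these, Col4a4 was the more precise, with 4 of 5 knockouts between 5.63 and 5.74, under the lowest control at 6.15, and knockout 5 at 6.20. Other proteins of the basement membrane had lower means for 8 of 11 genes, with a median of -0.20. Sparc, a matricellular protein that binds collagen IV, had the lowest p, with controls from 13.18 to 13.43 and knockouts from 12.88 to 13.08, a difference of -0.35 ± 0.07 (SE) and an adjusted p of 0.164.

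Npnt, which encodes nephronectin, an integrin ligand of basement membranes, went the other way. Its values were 7.22, 7.32, 7.93, 7.97 and 7.86 in controls 1 to 5 and 8.55, 9.08, 8.12, 8.49 and 9.10 in knockouts 1 to 5. On this probe set, its brightest, all knockouts lay above all controls. The difference was 1.01 ± 0.23 (SE, 95% interval 0.50 to 1.52), with an adjusted p of 0.234. The other 3 probe sets of Npnt gave 0.57, 0.73 and 0.74. The groups separated for the probe set at 0.57 and overlapped for those at 0.73 and 0.74. How many of all probe sets separated in this direction was not counted. Npnt therefore had a higher mean in knockouts on all 4 of its probe sets, none of them past the threshold.

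Receptors of laminin and collagen IV, such as dystroglycan, integrin chains and sarcoglycans, showed no common direction: 5 of 11 had lower means and 6 higher, with a median of 0.0066. Those with the lowest p were Sgcd, a sarcoglycan (0.24, adjusted p = 0.737), and the laminin-binding integrin chains Itga7 (-0.21, adjusted p = 0.760) and Itga6 (-0.17, adjusted p = 0.841, and -0.025 without the 3 arrays). Enzymes and chaperones of collagen IV folding and crosslinking had a median of -0.04 over 11 genes, 8 of them lower. They were led by Serpinh1, the collagen chaperone (-0.42, adjusted p = 0.652), Pxdn, which crosslinks collagen IV (-0.26, adjusted p = 0.714), and P4ha2, a prolyl hydroxylase subunit (-0.22, adjusted p = 0.865). P4ha2 was at -0.08 without the 3 arrays, and Pxdn at -0.16 without control 5. Proteases and their inhibitors had lower means for 7 of 8 genes, with a median of -0.36. The proteases Htra1 (-0.56 ± 0.11 SE, adjusted p = 0.137), Mmp2 (-0.51 ± 0.13 SE, adjusted p = 0.301) and Bmp1 (-0.52 ± 0.22 SE, adjusted p = 0.621) were the closest to the threshold in that list.

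Collagens of the interstitial matrix had lower medians than the 10 basement membrane genes. The fibrillar and fibril-associated collagens had a median of -0.61 over 9 genes, all lower and, by brightest probe sets, 1 past the threshold (Col1a2, -0.84 ± 0.12 SE, adjusted p = 0.0494). Dimmer probe sets of Col1a1 (-1.12) and Col1a2 (-1.15) passed too (adjusted p = 0.0264 each). The Col1a2 call was lost with no filter (adjusted p = 0.102), with the replicate number as a block (0.193), without the 3 arrays (0.163) and without any single array other than knockout 5 (0.0982 to 0.161). The collagen VI chains had a median of -0.51 over 3 genes, all lower and 1 past the threshold (Col6a3, -0.56 ± 0.07 SE, adjusted p = 0.0377). The Col6a3 call was lost with median centring (adjusted p = 0.0702), with the replicate block (0.193), without the 3 arrays (0.114) and without any single array other than knockout 5 (0.0513 to 0.138). Col6a1 (-0.40, adjusted p = 0.0691) and Col6a2 (-0.51, adjusted p = 0.0702) passed under other settings, such as the variance trend and robust fit (0.0140 and 0.0171). The SE of the Col4a1 difference (0.08) was close to that of Col6a3 (0.07), so the lower adjusted p of Col6a3 goes with its larger difference. Whether the basement membrane and interstitial genes differ in size of change was not tested.

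**Figure D5:**
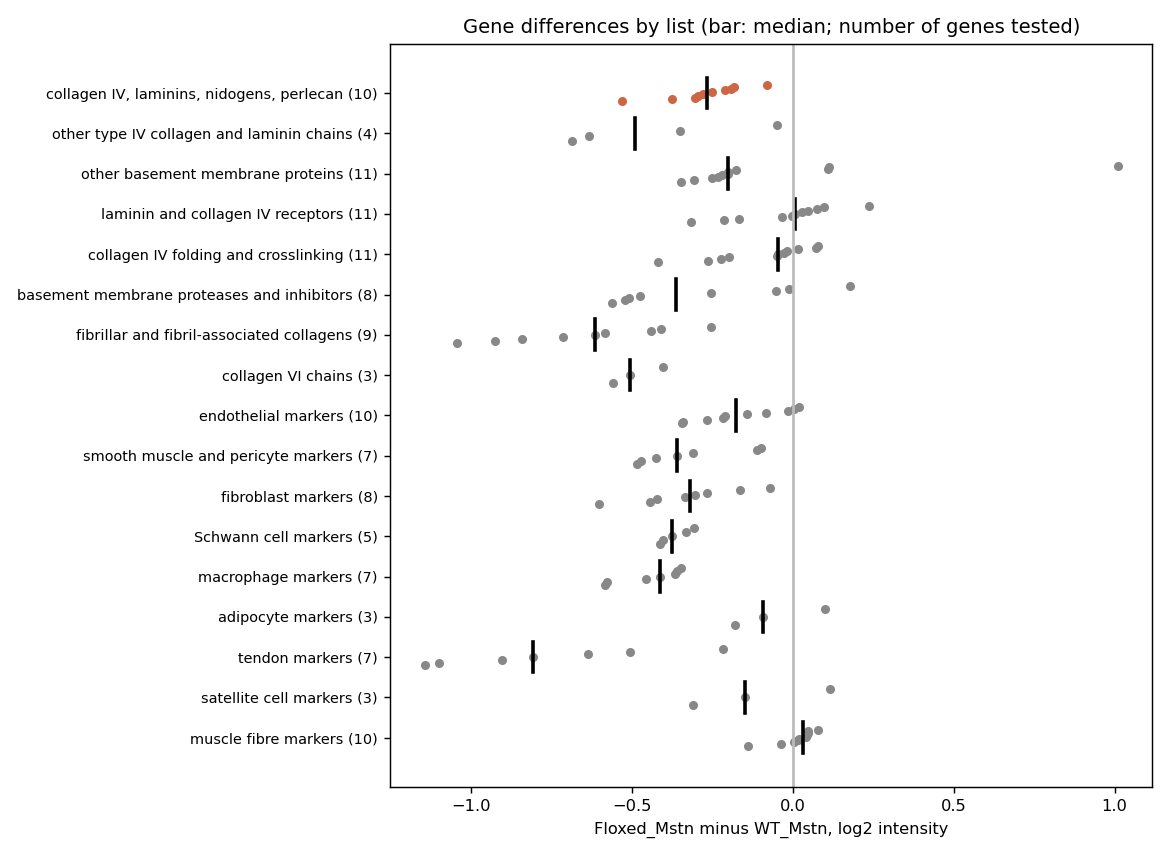
Difference in log2 intensity, Floxed_Mstn minus WT_Mstn (horizontal axis), of each tested gene (points, brightest probe set) in 17 lists, with a black bar at each median and the number of genes tested in brackets. The 10 genes of collagen IV, laminins, nidogens and perlecan have a median of -0.27, between those of the endothelial markers (-0.18) and of the fibrillar collagens (-0.61), and Npnt is the isolated point near 1.

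Markers of most cell types that lie between the muscle fibres also had lower means in knockouts. Endothelial markers had lower means for 8 of 10 genes, with a median of -0.18, and the summed intensity of the list ran from 3780 to 4513 in controls and from 3327 to 3838 in knockouts. Smooth muscle and pericyte markers were lower for 7 of 7 tested, with a median of -0.36 and sums of 10550 to 12243 and 9085 to 10406, and Cnn1 lay below the filter. Fibroblast markers were lower for 8 of 8, with a median of -0.32 and sums of 25493 to 33081 and 21304 to 29129. Schwann cell markers were lower for 5 of 5, with a median of -0.38 and sums of 7111 to 10970 and 6093 to 9690. Macrophage markers were lower for 7 of 7, with a median of -0.41 and sums of 8375 to 12194 and 5855 to 10829. None of these markers passed the threshold, and the part of these cells in the values of the 10 genes was not tested.

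Tendon markers were lower for 7 of 7, with a median of -0.81 and sums of 28445 to 34684 in controls and 15102 to 29524 in knockouts, again with none past the threshold and their part not tested. Adipocyte markers had a median of -0.09 over 3 genes (Lep lay below the filter), with sums of 16906 to 19497 and 15446 to 20176, and satellite cell markers one of -0.15 over 3, with sums of 350.6 to 444.5 and 313.4 to 429.0. The tissue itself read as skeletal muscle, since muscle fibre markers such as Mb (14.76 in controls), Actn3 (14.88) and Tnnt3 (15.31) lay near the top of the scale. These markers do not show which muscle was sampled. Their list had a median difference of 0.03, with 8 of 10 genes higher and Mb at -0.14, and sums of 356965 to 378347 in controls and 359641 to 377638 in knockouts.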

How the data were processed

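The authors deposited a linear intensity for each probe set and array, made with GCRMA per the submitters' processing notes. GCRMA corrects background from probe sequence, normalizes arrays to each other and sums up the probes of a set, which compresses dim values near a floor. The version of GCRMA is not given in the sources used here. No scanner file was read. Arrays have no read depth, and their number limits the precision. Log2 was taken of the deposited values with no further normalization. Of the probe sets, 34958 carried 1 gene symbol in the platform annotation, 932 several and 9211 none. Only the first were named, and 64 array controls were left out. Probe sets with a mean log2 of 4 or more over all arrays (21154, for 10704 genes) entered a limma 3.58.1 fit under R 4.3.3 (lmFit, eBayes, two-sided, Benjamini-Hochberg over all of them), and the fit was tested on simulated data. The brightest probe set stood for a gene in lists. The 10 genes and the lists were chosen with earlier results of these data known, and no list was given a test. All tested probe sets of the 10 genes are given, with up to 3 genes of lowest p per other list. For cell type lists the counts stand in place of names. Exact permutation tests ran over 252 assignments, with 0.00794 as the smallest p. Alternatives covered the filter, scaling, floor, variance model, array weights, replicate block, hybridisation control covariate, probe set choice and arrays left out. Nothing in the labels says more than that each array is a separate mouse sample, so p-values measure the spread between these samples. Figures used matplotlib 3.10.9 in Python 3.11.15.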

Additional observations from a re-analysis of the deposited data

Results flagged for a closer look

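In 78 groups of 5 arrays (the tested probe sets of the 10 genes, the named related genes and the technical measures), 4 held an array far from the rest, where chance gives about 1 in 20, or 3.9. In controls, the dimmer Lamc1 probe set read 6.74 in control 3 against 7.58 to 7.80 in the others. Col4a4 read 6.20 in knockout 5 against 5.63 to 5.74 in the other knockouts. Col15a1, a collagen of vessel and fibre basement membranes, read 9.10 in knockout 5 against 8.71 to 8.80. Pxdn read 9.37 in control 5 against 8.77 to 8.91.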

How the results depend on the processing

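No probe set of the 10 genes passed under any alternative run, and the difference of each gene's brightest probe set was negative in all 20 fits, the reported one included. The lowest adjusted p of any probe set of the 10 genes was 0.0934, for the dimmer Col4a1 probe set with array weights. The brightest Col4a1 probe set had 0.103 in that fit. The median of the 10 genes ran from -0.31 (without knockout 5) to -0.20 (without the 3 arrays of highest hybridisation controls). Over all probe sets, the 21 calls became 11 with no filter, 36 after quantile normalization, 58 with a variance trend and robust fit, 67 with array weights, 72 with the hybridisation control covariate and 5 without those 3 arrays. Leaving out single arrays gave 1 to 17 calls. A fit with a replicate block called 1. Pearson's r between the deviations of a control and the knockout of the same number was -0.51, 0.13, 0.62, -0.20 and 0.19, so the numbers are not taken to pair the mice. The related genes gave 0 calls except with the variance trend and robust fit, which called 2, Sparc (adjusted p = 0.0201) and Htra1 (adjusted p = 0.0359). The causes were not tested. The filter on mean log2 keeps 5 of the 19 probe sets of these genes and 5 of the rarer chains out of the reported fit.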
